A study of Mus musculus with 16 samples.

Results

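Cells cultured under Th17 conditions were set against cells cultured as Th0, both without drug, on 4 mouse gene arrays per group. These are 8 of the 16 arrays of the study, and the other 8 hold cells under Th17 conditions with ezetimibe or rosuvastatin. The drug arrays entered the estimate of the spread and the choice of 1 feature per gene. Every gene with a main array feature that carries 1 gene symbol was a member of the comparison, which gave 30920 genes, and the brightest feature stood for the 657 genes with several. Both groups are labelled as CD4 T cells from the spleen of wild-type male mice aged 8 weeks, strain C54BL/6 as the labels spell it, after 3 days of culture. For the Th17 condition the methods list plate-bound antibody to CD3, soluble antibody to CD28, antibodies that block IFN-γ and IL-4, TGF-β and IL-6. The sources used here do not give what the Th0 cultures received, so the agents that distinguish the groups cannot be told apart. The written account of the study differs from the labels in several ways. It names BALB/c mice as the source of spleen cells for work in culture, and it calls the Th0 group naïve T cells. Its results speak of splenocytes and of a single day under Th17 conditions. Its methods, however, describe CD4-positive T cells stimulated for 3 days, as the labels do. The sources do not settle which of these holds for the arrays. So strain, time in culture and whether Th0 cells were stimulated at all are uncertain for every difference below. In Th0 arrays Il13 had a mean of 9.97, and of 21 naive T cell genes 15 were higher and 1 lower in Th17. What such values say about stimulation of the Th0 cells was not tested. Whether the arrays of a group came from separate mice or cultures is not given, so a p-value speaks only of the spread among these arrays.

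Th17 cells are CD4 T helper cells that arise when stimulation through the T cell receptor meets TGF-β and IL-6, signal through STAT3 and secrete IL-17. Th2 cells are a different helper lineage, directed by GATA3 and IL-4, whose genes for IL-4, IL-5 and IL-13 lie together on 1 chromosome. The name Th0 is used both for T cells stimulated without signals toward a lineage and for naive T cells, and the sources do not settle which was meant here.

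The values are log2 signals as the authors deposited them, and differences are Th17 minus Th0 on that scale, with values of single arrays in the order unnumbered, 1, 2 and 3. Arrays correlated at 0.9909 to 0.9923 within Th17, 0.9903 to 0.9913 within Th0 and 0.9793 to 0.982 between the groups, across genes. Exon and intron control probes, whose separation measures array quality, gave an area under the curve of 0.876 to 0.881 in Th17 and 0.870 to 0.876 in Th0. The 23 antigenomic controls, which match no mouse sequence, had medians of 2.35 to 2.57 in Th17 arrays and 2.56 to 2.66 in Th0 arrays. The column names set the unnumbered array of each group apart from the 3 numbered ones. The number of arrays sets the precision, and the median standard error of the log2 differences was 0.114. RNA was taken from whole cultures, so fewer cells of a type and less RNA per cell cannot be told apart.

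Of the 30920 genes, 2628 rose in Th17, which is 8.50% of those tested, and 2255 fell, which is 7.29% (limma, Benjamini-Hochberg adjusted p at or under 0.05). These shares of all genes are the background for every count of listed genes below. The median difference over all genes was -0.03. The 4 Th17 arrays lay above the 4 Th0 arrays without overlap for 3120 genes (10.1%) and below them for 2940 (9.51%), in either direction 19.6% of genes. The 3 numbered arrays of each group alone gave 2320 genes higher and 1965 lower.

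The gene for the cytokine IL-17F (Il17f, chr1:20777146-20784270) showed the largest rise of all genes tested. Its signal was 10.37, 10.38, 10.30 and 10.31 in Th17 arrays, against 4.87, 3.84, 4.22 and 4.13 in Th0 arrays. The groups were far apart, with a difference of 6.08 (SE 0.14, 67.5-fold, adjusted p = 7.09e-15). The next largest rise was that of Ly6g, a GPI-anchored surface protein best known as the marker of mouse neutrophils (chr15:75155645-75158739). Ly6g had 9.97, 9.86, 9.99 and 9.89 in Th17 arrays, against 4.63, 4.87, 4.85 and 4.74 in Th0 arrays, a difference of 5.16 (adjusted p = 1.04e-14). Every Th17 array lay far above every Th0 array for both genes. The receptor for IL-23 (Il23r) rose by 4.66, the IL-1 receptor Il1r1 by 3.43 and Il17a by 2.99, and Ahr, the aryl hydrocarbon receptor, rose by 2.74. Outside the lineage genes, Serpinb1a, an inhibitor of neutrophil proteases, rose by 3.79, and its family member Serpinb5 by 3.67. Klrd1, the CD94 subunit of killer lectin-like receptors, rose by 3.32, the adhesion molecule P-selectin (Selp) by 3.12, the water and glycerol channel Aqp3 by 3.01 and Enpp2 by 2.95. Enpp2 encodes autotaxin, the secreted enzyme that makes lysophosphatidic acid. Among the 15 largest rises were also the pseudokinase gene Trib2, at 2.72, and Ust, a sulfotransferase for chondroitin and dermatan sulfate, at 2.59.

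The largest fall was that of Il13 (-4.73). Leaving aside immunoglobulin segments, which are described with the B cell markers and of which Igh-V3609N fell by 4.34, the next was Trat1, at -3.38, an adaptor that associates with the T cell receptor complex. The interferon-stimulated genes Oasl1, Ifi44 and Ifit1 fell, with differences of -2.92, -2.81 and -2.42, and Gbp10, a guanylate-binding protein whose feature also matches other genes, fell by 2.45. Cth, the cystathionine gamma-lyase that makes cysteine, had 6.23, 5.90, 5.58 and 6.25 in Th17 arrays and 8.67, 8.59, 8.52 and 8.48 in Th0 arrays. No Th17 array reached the Th0 arrays, and the difference was -2.58 (SE 0.12, adjusted p = 5.42e-11). The B cell gene Fcer2a (CD23, -2.60), the clade B serpin Serpinb6b (-2.48) and the eosinophil growth factor Il5 (-2.45) fell too. So the 10 largest falls outside the immunoglobulin segments held genes of Th2 cells, of the interferon response, of amino acid metabolism and of B cells.

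**Figure D1:**
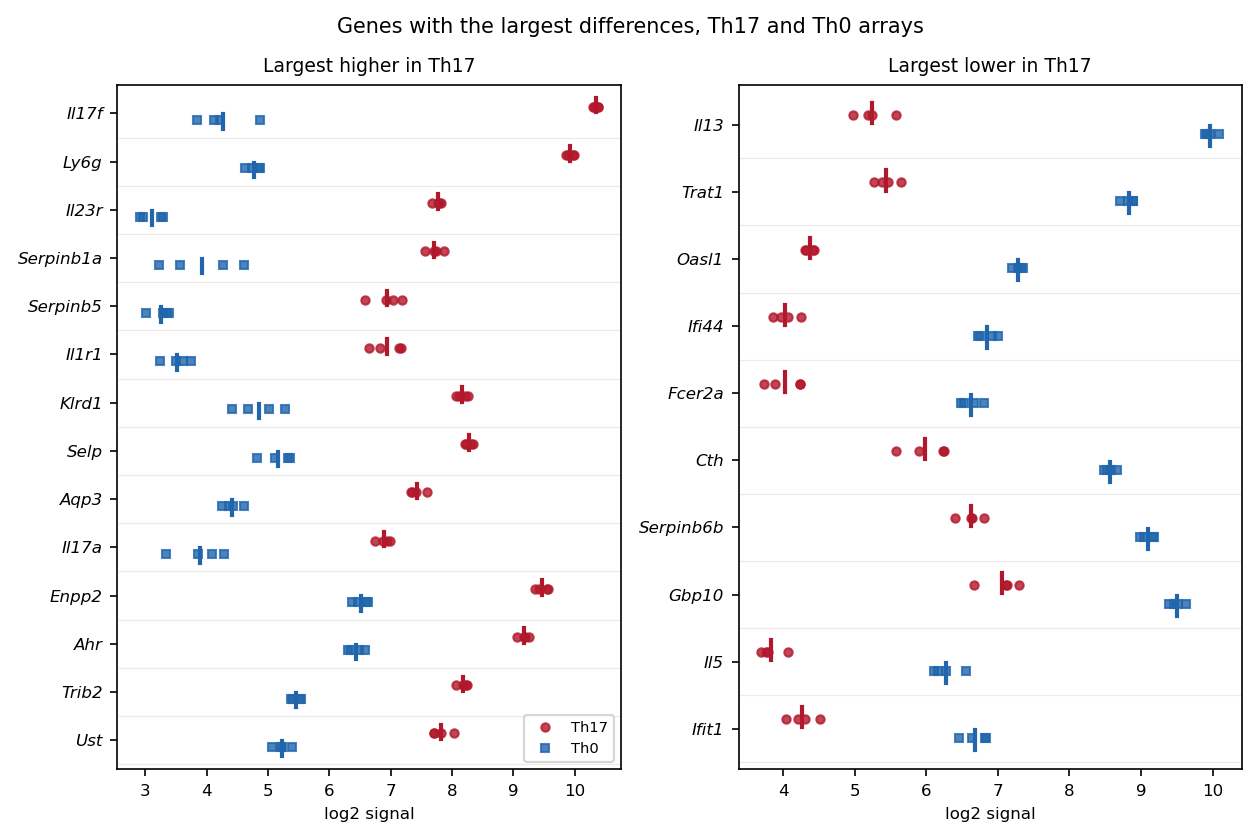
Log2 signal of 14 of the 15 genes with the largest rise and the 10 with the largest fall, immunoglobulin segments left out, 1 point per array and a line at each group's mean, with Th17 above Th0 for each gene. The groups did not overlap for any of these 24 genes, and differences ran from 6.08 for Il17f to -4.73 for Il13.

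**Figure D2:**
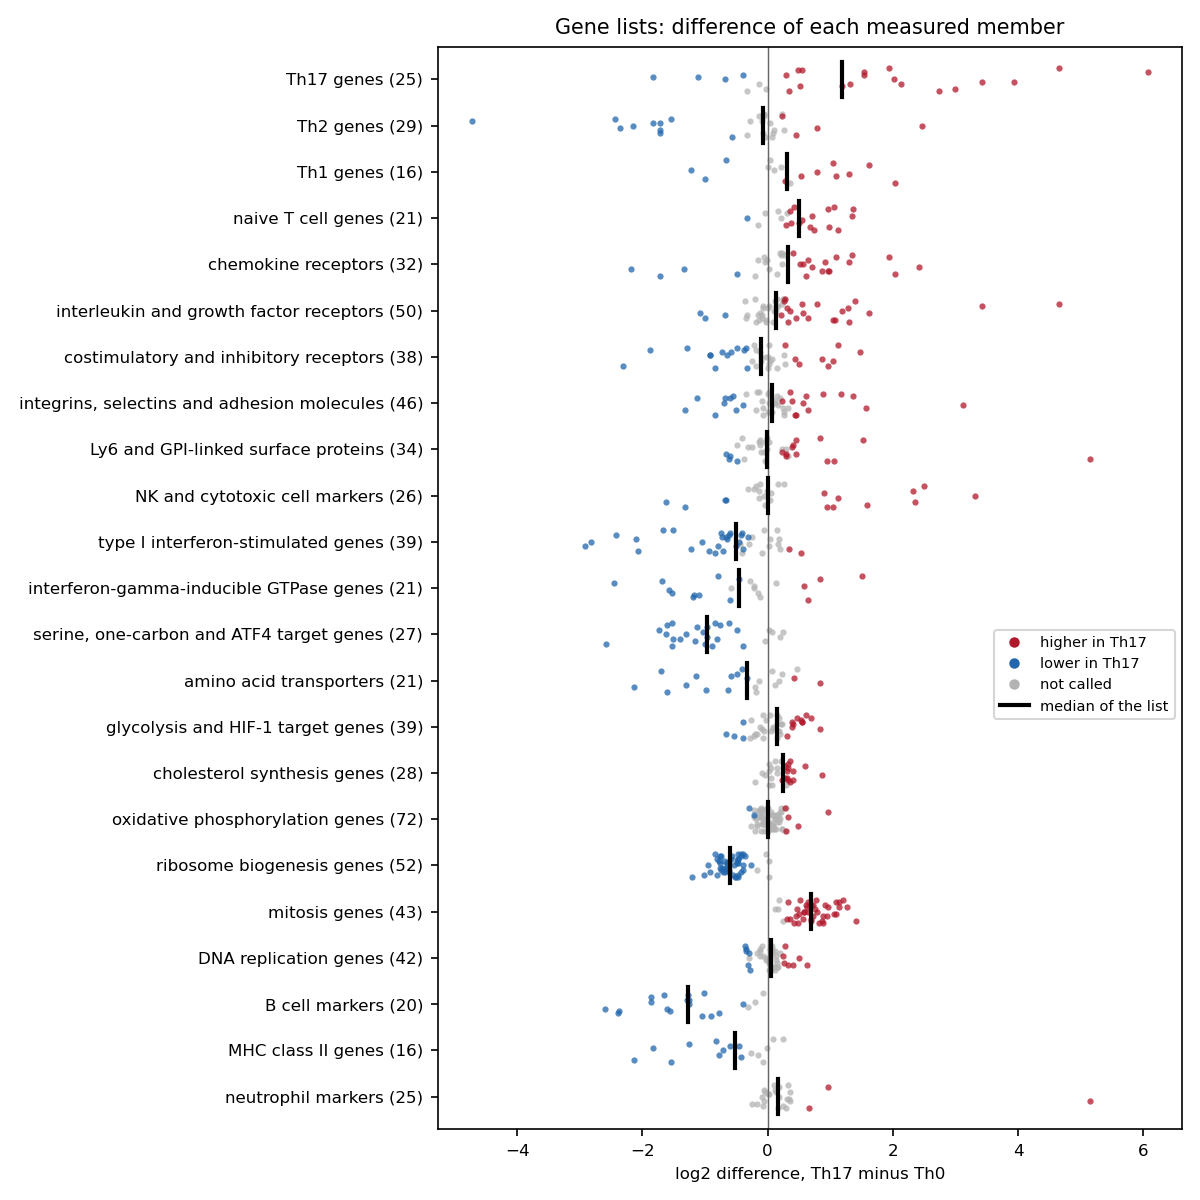
Log2 difference Th17 minus Th0 of every member of each gene list, 1 point per gene and a bar at the list's median, with genes past the threshold in colour. Ribosome biogenesis genes (median -0.60) and serine and ATF4 genes (median -0.97) lie left of 0, and mitosis genes (median 0.69) and naive T cell genes (median 0.51) lie right of it.

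Genes of the Th2 lineage were lower in Th17 at the cytokine locus and at its main regulator, and went both ways elsewhere. Il13 (chr11:53631323-53634702) had 5.57, 5.24, 5.18 and 4.97 in Th17 arrays, against 10.09, 9.92, 9.89 and 9.97 in Th0 arrays. The Th0 arrays were all at or near 10, and the difference was -4.73 (SE 0.11, 26.5-fold lower, adjusted p = 7.09e-15). Il5 (chr11:53720794-53725106) had 3.79, 3.70, 3.77 and 4.06 in Th17 and 6.55, 6.27, 6.16 and 6.11 in Th0, and Il4 (chr11:53602982-53618669) fell by 2.15. Gata3, the lineage's transcription factor, had 5.48, 5.52, 5.43 and 5.55 in Th17 arrays, against 7.89, 7.83, 7.84 and 7.83 in Th0 arrays, a difference of -2.35 (adjusted p = 8.4e-13). Both genes were without overlap. Of 29 Th2 genes, 10 fell and 4 rose with a median of -0.08, against -0.03 over all genes. Among those that fell were the chemokine receptor Ccr8 at -1.73, the cytokine gene Il3 at -1.72, the nuclear receptor Pparg at -1.71 and the prostaglandin D synthase Hpgds at -0.57. The leukotriene receptor Cysltr1 rose by 2.47, Il9 by 0.79 and the IL-4 receptor Il4ra by 0.45. Il24, a cytokine gene of the IL-10 family that stands on both the Th2 and the Th17 list, fell by 1.83.

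The falls around Il13 took in genes that are not cytokines. Of its neighbours, which were chosen after their values were seen, Rad50 (chr11:53649519-53707319), a DNA repair gene whose introns hold the control region of the mouse Th2 cytokine locus, had 7.07, 7.06, 6.99 and 7.08 in Th17 arrays and 8.43, 8.59, 8.51 and 8.48 in Th0 arrays. Its difference was -1.45 (adjusted p = 3.79e-10), with no overlap. The kinesin gene Kif3a was at -0.31, with an adjusted p of 0.0256 that was 0.0758 to 0.0897 without Th17 array 2, Th17 array 3, Th0 array 1 or Th0 array 2. The septin gene Sept8 fell by 0.53 at 98.6 kb from Il13, and Irf1 was at -0.22 and not past the threshold at 141 kb. The gene start regions of Il13 and Il5 are shown because these were the Th2 cytokine genes with the largest falls. They run 250 bases before to 50 bases after the start, from RefSeq on build GRCm38.p6 and in the direction of the gene, with GATA or its complement TATC, the core letters that GATA factors bind, in capitals.
Il13 promoter (chr11:53634653-53634952, minus strand): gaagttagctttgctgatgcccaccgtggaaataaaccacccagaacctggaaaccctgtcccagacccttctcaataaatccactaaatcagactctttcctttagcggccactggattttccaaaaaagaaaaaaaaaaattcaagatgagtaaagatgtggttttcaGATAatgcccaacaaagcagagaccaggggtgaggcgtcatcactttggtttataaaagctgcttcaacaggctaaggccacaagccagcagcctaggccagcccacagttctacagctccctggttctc
Il5 promoter (chr11:53720544-53720843, plus strand): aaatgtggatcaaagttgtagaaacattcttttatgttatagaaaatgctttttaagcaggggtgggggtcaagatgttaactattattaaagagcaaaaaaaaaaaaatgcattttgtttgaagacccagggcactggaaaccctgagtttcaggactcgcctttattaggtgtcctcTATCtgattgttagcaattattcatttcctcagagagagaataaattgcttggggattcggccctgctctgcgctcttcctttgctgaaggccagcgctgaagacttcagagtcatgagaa
Each holds 1 match to these 4 letters. A match on either strand is in a start region of 61.5% of 27025 genes and of 16 of the 25 Th2 genes that have one (64%).

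**Figure D3:**
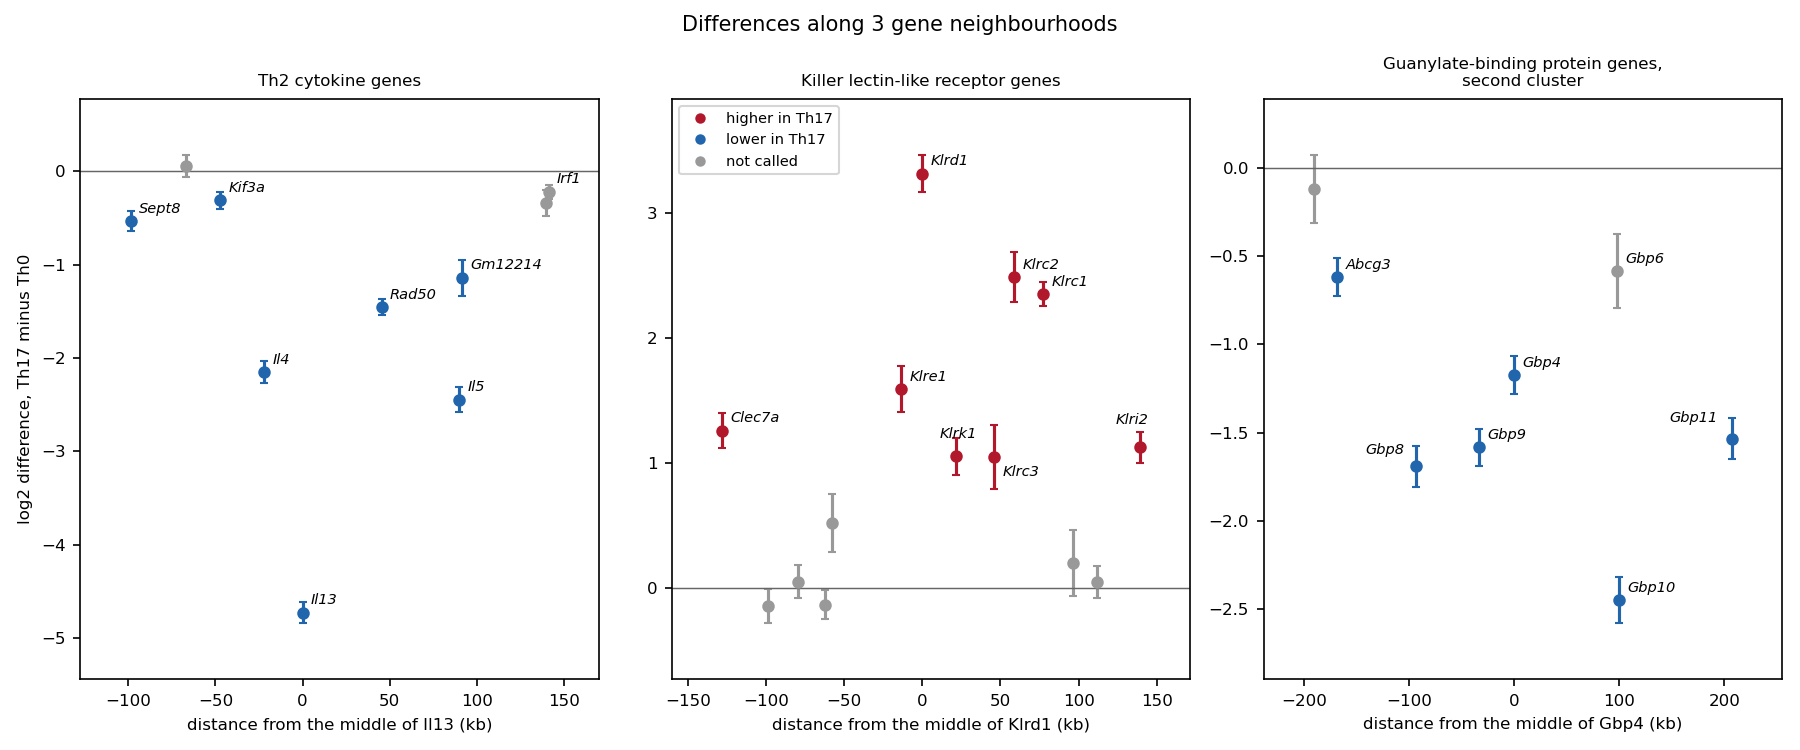
Log2 difference Th17 minus Th0 of the genes around Il13, around Klrd1 and around Gbp4 in the chromosome 5 cluster of guanylate-binding proteins, against distance from the middle of that gene in kb, with bars for the standard error. Falls stand on both sides of Il13 (-4.73), rises run through the killer lectin-like receptor genes (Klrd1 at 3.32), and the guanylate-binding proteins drawn are below 0 (Gbp10 at -2.45).

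Genes that define T cells and their lineages were read in every array. Cd3e, a chain of the T cell receptor complex, had 10.97, 10.88, 10.99 and 10.99 in Th17 arrays and 10.22, 10.32, 10.24 and 10.33 in Th0 arrays, and Cd4 had 10.38, 10.59, 10.66 and 10.60 in Th17 and 10.09, 10.24, 10.22 and 10.32 in Th0. Both were thus bright in every array, and Cd3e rose by 0.68. The difference of 0.34 in Cd4 (adjusted p = 0.0233) did not pass the threshold without Th17 array 1, 2 or 3 or without the unnumbered Th0 array (adjusted p 0.0566 to 0.0739). Of 25 Th17 genes, 18 rose and 4 fell with a median of 1.18. The falls were Il24, the growth factor gene Csf2 at -1.11, the IL-12 and IL-23 receptor subunit Il12rb1 at -0.68 and the transcription factor Batf at -0.40. Tbx21, the factor of Th1 cells, fell by 1.22 and Ifng fell by 1.01, while 8 of 16 Th1 genes rose, among them the IL-18 receptor subunits Il18r1 at 1.62 and Il18rap at 1.29. Foxp3, the factor of regulatory T cells, had 6.36, 6.35, 6.36 and 6.87 in Th17 and 6.44, 6.35, 6.43 and 6.54 in Th0, which overlap (0.05, adjusted p = 0.852). Even so 8 of 18 regulatory T cell genes rose, with Lrrc32, which anchors latent TGF-β, at 0.91 and Ctla4 at 0.86, and Ebi3, a subunit of IL-35, fell by 1.72. Il10 rose by 0.49 and Il2 fell by 0.58. Of 21 genes of naive T cells, which recirculate through lymph nodes, 15 rose and 1 fell, with a median of 0.51. S1pr1, which lets T cells leave the lymph node, rose by 1.35, its regulator Klf2 by 1.12 and the transcription factor Tcf7 by 0.98.

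The genes for surface molecules moved in both directions, and chemokine receptors were more often higher than lower. Of 32 chemokine receptors and related receptors that guide migration or sense lipids and protons, 16 rose and 4 fell, with a median of 0.33. Gpr15, a receptor that guides T cells to the colon, had 6.68, 6.45, 6.38 and 6.54 in Th17 arrays, against 4.24, 4.02, 4.07 and 4.07 in Th0 arrays. It rose by 2.42 without overlap, and the mucosal receptor Ccr6 rose by 1.93. The IL-8 family receptors Cxcr1 and Cxcr2, best known from neutrophils, rose by 1.31 and 0.96. The 4 that fell were Ccrl2 (-2.19), Ccr8 (-1.73), Gpr34 (-1.33) and Cxcr5 (-0.49), the receptor that leads cells to B cell follicles. Of 20 chemokine ligands, 3 rose and 6 fell (4 fell without Th17 array 1 or without Th0 array 3). Ccl20, the ligand of Ccr6, rose by 1.31, Ccl9 by 1.22 and Ccl6 by 1.14, while Ccl5 (-2.10), Ccl22 (-1.66) and Ccl3 (-0.77) fell.

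The ligands of the inhibitory receptor PD-1 were among the largest falls of 38 costimulatory and inhibitory genes, of which 8 rose and 13 fell. PD-L2 (Pdcd1lg2) had 5.33, 5.47, 5.35 and 5.41 in Th17 arrays, against 7.72, 7.60, 7.69 and 7.77 in Th0 arrays (-2.31, adjusted p = 1.25e-12). PD-L1 (Cd274) had 6.66, 6.69, 6.51 and 6.51 in Th17 and 8.48, 8.45, 8.44 and 8.49 in Th0 (-1.87, adjusted p = 9.13e-12). The groups were apart in both, and the activating receptor Cd226 fell by 1.29. Cd83, a maturation marker of dendritic cells that activated lymphocytes also carry, fell by 2.06. On the other side, Cd101 rose by 1.48, Vsir (VISTA) by 1.12 and Icos by 1.04. In the TNF family, 8 of 32 genes rose and 10 fell. The B cell survival receptor Tnfrsf13c (-1.73), the lymphotoxin gene Lta (-1.39), the CD30 ligand Tnfsf8 (-1.11) and the death ligand Fasl (-0.90) fell, while the OX40 ligand Tnfsf4 rose by 1.06 and the death receptor Tnfrsf25 by 0.85.

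Cytokine receptors rose more often than they fell, with 20 of 50 higher and 3 lower (5 lower without Th0 array 1). Beside Il23r and Il1r1 stood Il17ra, the receptor for IL-17A and IL-17F, at 1.40, Il13ra1 at 1.28, the IL-6 receptor Il6ra at 1.18 and its partner Il6st at 1.07. The IL-10 receptor Il10ra fell by 1.08 and Il15ra fell by 0.99. Of 46 integrins, selectins and other adhesion genes, 13 rose and 9 fell. The laminin-binding integrin subunit Itga3 rose by 1.57 and Emb, embigin, by 1.17, while the collagen-binding subunit Itga2 (-1.13), Alcam (-0.84) and Epcam (-0.69) fell.

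Enzymes on the cell surface included the adenosine-making pair of Nt5e (CD73) and Entpd1 (CD39). Nt5e had 8.87, 8.92, 8.91 and 8.89 in Th17 arrays, against 6.19, 6.60, 6.57 and 6.54 in Th0 arrays, a rise of 2.43 (adjusted p = 2.6e-12), and Entpd1 rose by 0.49. In all, 9 of 29 ectoenzymes rose and 4 fell, among them the metalloprotease Adam19 at 1.47, Dpp4 (CD26) at 0.79, Adam8 at -0.78 and the phosphatase Alpl at -0.76. Among 34 Ly6 and other GPI-linked proteins, 12 rose and 4 fell with a median of -0.02, and 8 rose without Th17 array 1, 2 or 3 or without Th0 array 3. The prion protein Prnp rose by 1.53, H60b by 0.94 and Ly6c1 by 0.84, far less than the 5.16 of Ly6g, and Ly6d, a marker of B cell precursors, fell by 0.59.

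Killer lectin-like receptors, by which natural killer cells read class I molecules, rose in a block around Klrd1 on chromosome 6 (chr6:129591782-129598775). Klrd1 had 8.26, 8.11, 8.07 and 8.21 in Th17 arrays, against 4.67, 4.42, 5.28 and 5.02 in Th0 arrays (3.32, adjusted p = 2.37e-11). Klrc1, which encodes NKG2A, the inhibitory partner of CD94, had 6.88, 7.13, 6.70 and 7.0 in Th17 and 4.45, 4.65, 4.53 and 4.67 in Th0 (2.35). Neither receptor gene overlapped between the groups. Klrc2, the activating partner, rose by 2.49, Klre1 by 1.59, Klri2 by 1.13, Klrk1 (NKG2D) by 1.05 and Klrc3, whose feature also matches other genes, by 1.05. Of the 26 genes of this family, counted by symbol after the values were seen, 9 rose and none fell (17 not past the threshold). Among genes that define natural killer cells, Ncr1 was 3.34 ± 0.22 in Th17 and 3.48 ± 0.29 in Th0, and Klrb1c (NK1.1) was 3.12 ± 0.19 in Th17 and 3.06 ± 0.43 in Th0 (SD, n = 4 each), neither past the threshold. Among the 26 genes of the natural killer and cytotoxic list, 9 rose and 4 fell. The lysosomal protease cathepsin W (Ctsw) rose by 2.32 and the granzymes Gzmk and Gzma by 0.94 and 0.89. Granzyme B (Gzmb), the main killing protease of cytotoxic T cells, had 8.76, 8.89, 8.96 and 8.96 in Th17 arrays, against 10.42, 10.55, 10.49 and 10.57 in Th0 arrays (-1.62). It thus moved against Gzmk and Gzma, with Ccl5, Eomes (-0.67) and Nkg7 (-0.69) on its side.

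Among the metabolic lists, that of serine, one-carbon and ATF4 target genes had the median farthest from 0. Of 27 genes for serine, one-carbon metabolism and targets of ATF4, the factor that answers amino acid shortage, 22 fell and none rose (limma, 5 not past the threshold). Their median was -0.97, which was -1.02 in the numbered arrays alone and -0.92 between the unnumbered arrays. Asparagine synthetase (Asns, chr6:7675169-7693254) had 7.38, 7.37, 7.44 and 7.43 in Th17 arrays, against 8.77, 8.80, 8.79 and 8.86 in Th0 arrays (-1.40, adjusted p = 1.73e-10). Chac1, which degrades glutathione and is a classical ATF4 target, had 5.17, 5.12, 4.85 and 5.18 in Th17 and 6.66, 6.75, 6.74 and 6.67 in Th0 (-1.63, adjusted p = 6.2e-10). No array of either group crossed into the other. Cth and the mitochondrial folate enzyme Aldh1l2 (-1.73) led the falls, the stress genes Nupr1, Sesn2 and Trib3 were at -1.61, -1.53 and -1.52, and Atf4 itself fell by 0.84. The serine synthesis enzymes Phgdh and Psat1 were at -1.30 and -0.99, and Mthfd2, which supplies formate for nucleotides, fell by 1.17.

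Amino acid transporters fell with them, since 11 of 21 were lower and 2 higher, and their median was -0.33. The arginine and lysine transporter Slc7a3 (-2.14), Slc7a5 (-1.71), the catalytic subunit of the leucine carrier LAT1, the alanine and serine carrier Slc1a4 (-1.61) and the arginine carrier Slc7a1 (-1.30) fell most. Slc7a5 had 8.14, 8.01, 7.98 and 8.13 in Th17 arrays and 9.75, 9.77, 9.71 and 9.86 in Th0 arrays. Slc43a2, a leucine carrier of another family, rose by 0.84. The enzymes that load amino acids on tRNA, a family counted by symbol after the values were seen, fell in 16 of 19 cases with a median of -0.69, led by the leucine enzyme Lars at -1.26. The start regions of Asns and Chac1 are printed because both genes are known targets of ATF4. Capitals mark TGATGNAA or its complement TTNCATCA, the letters of the site that ATF4 shares with C/EBP factors, a motif chosen after the values were seen.
Asns promoter (chr6:7693160-7693459, minus strand): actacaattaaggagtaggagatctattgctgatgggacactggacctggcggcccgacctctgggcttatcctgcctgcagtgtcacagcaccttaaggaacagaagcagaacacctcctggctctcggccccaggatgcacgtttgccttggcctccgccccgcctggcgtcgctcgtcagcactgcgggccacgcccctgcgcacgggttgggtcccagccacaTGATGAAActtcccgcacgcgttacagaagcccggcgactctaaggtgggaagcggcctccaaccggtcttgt
Chac1 promoter (chr2:119350992-119351291, plus strand): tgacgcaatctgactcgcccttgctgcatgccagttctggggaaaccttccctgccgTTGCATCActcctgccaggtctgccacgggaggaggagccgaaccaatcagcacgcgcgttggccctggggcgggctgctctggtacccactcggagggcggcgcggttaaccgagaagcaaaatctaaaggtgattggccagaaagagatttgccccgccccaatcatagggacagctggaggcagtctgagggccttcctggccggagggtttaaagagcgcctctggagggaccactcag
This motif is in 7 of the 24 genes of the list that have such a region (29.2%), in 3 of 15 amino acid transporters (20%) and in 4.51% of all genes with one. Among list members that fell it is in 5 of 19, and among the others in 2 of 5.

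**Figure D4:**
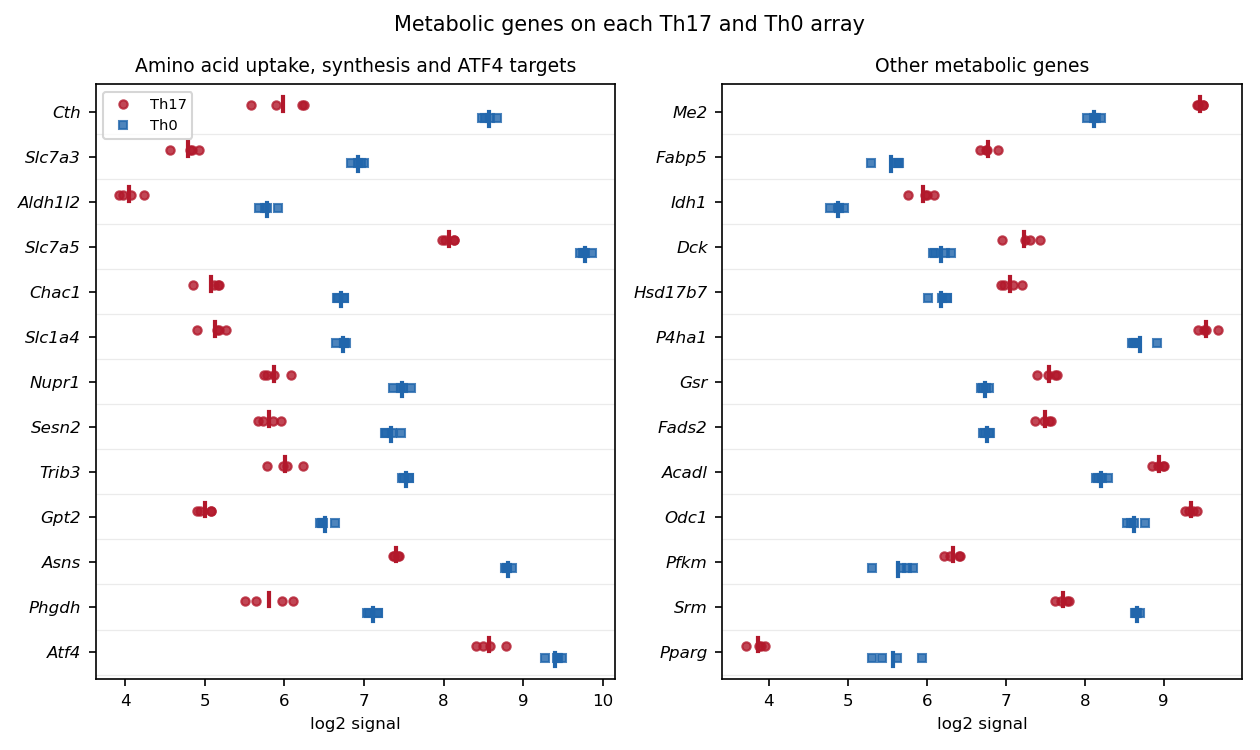
Log2 signal of genes of amino acid, carbon and lipid metabolism, 1 point per array and a line at each group's mean, with Th17 above Th0 for each gene. Asns, Chac1 and Slc7a5 are lower in every Th17 array than in any Th0 array, and Me2 is higher in every one.

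Genes of carbon metabolism showed no such common direction. Among 39 genes of glycolysis and HIF-1 targets, 11 rose and 4 fell with a median of 0.15. The muscle phosphofructokinase Pfkm rose by 0.69 and P4ha1, a prolyl hydroxylase for collagen, by 0.84. The glucose carrier Slc2a1 had 10.27, 10.24, 10.16 and 10.11 in Th17 and 10.11, 9.96, 9.96 and 9.98 in Th0, which overlap (0.19, adjusted p = 0.0908). Lactate dehydrogenase Ldha was 6.92 ± 0.02 in Th17 and 6.84 ± 0.03 in Th0, and hexokinase 2 (Hk2) was 7.33 ± 0.08 in Th17 and 7.53 ± 0.12 in Th0 (SD, n = 4 each), neither past the threshold. In mitochondria the malic enzyme Me2 had 9.50, 9.43, 9.43 and 9.49 in Th17 arrays and 8.14, 8.20, 8.11 and 8.03 in Th0 arrays, a rise of 1.34 without overlap. The cytosolic isocitrate dehydrogenase Idh1, also on the list of 30 TCA cycle genes, rose by 1.08, while Dld, the shared subunit of the 2-oxoacid dehydrogenases, fell by 0.58 and Idh3a fell by 0.43. Of 72 genes of oxidative phosphorylation the median was 0.00, with 5 higher (6.94%, against 8.50% of all genes) and 2 lower (2.78%, against 7.29%). Only 3 were higher without the unnumbered Th17 array, Th17 array 2, Th0 array 1 or Th0 array 3, 1 was lower without the unnumbered Th17 array, Th17 array 1 or Th0 array 2, and 0 were lower with the numbered arrays alone or with centring.

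Lipid genes rose in larger numbers, though the medians of their lists were small. Of 28 cholesterol synthesis genes, 14 rose and none fell, with a median of 0.25, and 9 rose without Th17 array 1 or without Th0 array 1. The largest rises were those of Hsd17b7, a ketoreductase of the late pathway, at 0.87 and of Nsdhl, a demethylating enzyme, at 0.59. Of 22 genes of fatty acid synthesis and desaturation, 9 rose and 1 fell (5 rose without Th17 array 1), among them the desaturase Fads2 at 0.73 and the elongase Elovl6 at 0.54. In fatty acid uptake and oxidation, 11 of 30 rose and 1 fell, with a median of 0.15. The differences of that list ran from -1.71 to 1.22, so the largest was a fall. The fatty acid carrier Fabp5 rose by 1.22, and the dehydrogenases Acadl and Acadm by 0.73 and 0.60. Among glutamine and polyamine genes Odc1, the first enzyme of polyamine synthesis, rose by 0.72, and Smox, which turns spermine back to spermidine, by 0.90. The spermidine synthase Srm (-0.94) fell, as did the alanine transaminase Gpt2 (-1.51), which is not a polyamine gene. Dck, which salvages deoxycytidine, rose by 1.05, the glutathione reductase Gsr by 0.82 and the leukotriene B4 receptor Ltb4r1 by 1.35, and Ido1, which degrades tryptophan, fell by 1.73.

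Genes that build ribosomes and genes of cell division moved apart. Of 52 ribosome biogenesis genes, 48 fell and none rose, with a median of -0.60 (-0.57 in the numbered arrays and -0.62 between the unnumbered ones). Of 43 mitosis genes, 39 rose and none fell, with a median of 0.69 (0.71 and 0.63 in the same order). Nop58, a core protein of the particles that methylate ribosomal RNA, had 7.83, 7.95, 7.62 and 7.79 in Th17 arrays and 8.75, 8.78, 8.70 and 8.64 in Th0 arrays (-0.92). Ltv1, an assembly factor of the small subunit, fell by 1.21, and Noc3l and Wdr75 were at -1.02 and -0.95. Ccnb2, a mitotic cyclin, had 8.94, 8.68, 8.67 and 8.64 in Th17 arrays and 7.53, 7.08, 7.33 and 7.34 in Th0 arrays (1.41). Prc1, which bundles the spindle midzone, rose by 1.27, Cenpf by 1.21 and the centromeric histone Cenpa by 1.14. The 42 DNA replication genes had a median of 0.05, with the helicase subunit Mcm7 at 0.63 and Orc6 at -0.35. Of 65 replication-dependent histone genes, a family counted by symbol after the values were seen, 23 rose and none fell. The same way of counting gave 17 lower and 1 higher of 87 cytosolic ribosomal proteins, 11 lower and 2 higher of 77 mitochondrial ones, and 22 lower and 1 higher of 108 snoRNA genes. Snora75 fell by 1.34, and the single rise was Snord89 at 1.18.

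Interferon-stimulated genes were lower in Th17. Of 39 genes of the type I interferon response, which blocks viral replication, 25 fell and 2 rose, with a median of -0.50 (-0.49 in the numbered arrays and -0.65 between the unnumbered ones). Isg15, a ubiquitin-like modifier, had 3.50, 3.90, 4.23 and 3.86 in Th17 arrays, against 5.49, 5.88, 6.02 and 6.49 in Th0 arrays (-2.10, adjusted p = 9.82e-08). Ifit1, which binds foreign RNA, had 4.31, 4.03, 4.52 and 4.21 in Th17 and 6.46, 6.83, 6.64 and 6.82 in Th0 (-2.42, adjusted p = 6.41e-11). The 2 groups did not overlap in either gene. The RNA sensor Ifih1 fell by 2.07, and the negative regulator Usp18 fell by 1.51. One of the 2 rises was that of Ifi27l2a at 0.34, whose adjusted p of 0.0431 was 0.0504 to 0.141 when any array but the unnumbered Th17 array was left out.

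Guanylate-binding proteins, GTPases that attack intracellular pathogens and are induced by IFN-γ, split between their clusters. Gbp2 on chromosome 3 had 10.51, 10.50, 10.45 and 10.46 in Th17 arrays, against 8.99, 8.95, 8.97 and 9.0 in Th0 arrays, and Gbp5 and Gbp3 of the same cluster rose by 0.84 and 0.58. Gbp2 thus rose by 1.50 (adjusted p = 4.98e-11), while Gbp7, in the same cluster, fell by 1.19. On chromosome 5, Gbp10 (-2.45), Gbp8 (-1.69), Gbp9 (-1.58), Gbp11 (-1.53) and Gbp4 (-1.17) fell, and Gbp6 was at -0.58 (adjusted p = 0.0688). Gbp10 had 7.29, 7.12, 7.14 and 6.66 in Th17 arrays and 9.64, 9.52, 9.47 and 9.39 in Th0 arrays. Over 21 interferon-gamma-inducible GTPase genes, 4 rose and 10 fell. The start regions of Isg15, Ifit1 and Gbp2 are shown because they hold the same motif in genes that moved in opposite directions. Capitals mark GAAA followed after any 2 bases by GAAA, or the complement with TTTC, the element that interferon-activated factors bind, chosen after the values were seen, and the matches in Isg15 overlap each other.
Isg15 promoter (chr4:156200769-156201068, minus strand): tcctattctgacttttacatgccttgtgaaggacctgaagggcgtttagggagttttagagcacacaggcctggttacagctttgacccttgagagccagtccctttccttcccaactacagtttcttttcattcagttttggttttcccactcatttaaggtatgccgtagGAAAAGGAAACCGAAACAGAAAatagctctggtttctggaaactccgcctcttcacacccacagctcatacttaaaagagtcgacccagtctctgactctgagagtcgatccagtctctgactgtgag
Ifit1 promoter (chr19:34640639-34640938, plus strand): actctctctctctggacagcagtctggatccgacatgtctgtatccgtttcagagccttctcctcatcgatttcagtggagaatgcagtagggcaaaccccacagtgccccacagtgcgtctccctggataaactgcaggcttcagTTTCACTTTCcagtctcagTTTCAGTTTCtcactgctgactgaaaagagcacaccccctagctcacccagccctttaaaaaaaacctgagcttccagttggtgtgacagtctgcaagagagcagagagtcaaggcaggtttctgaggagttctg
Gbp2 promoter (chr3:142620413-142620712, plus strand): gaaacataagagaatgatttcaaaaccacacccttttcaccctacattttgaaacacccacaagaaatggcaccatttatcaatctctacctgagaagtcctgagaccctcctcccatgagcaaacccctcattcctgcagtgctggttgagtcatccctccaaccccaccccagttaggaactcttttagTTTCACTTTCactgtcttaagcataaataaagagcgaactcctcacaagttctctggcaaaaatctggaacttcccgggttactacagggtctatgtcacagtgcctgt
The motif is in 14 of the 27 type I interferon genes with such a region (51.9%), in 9 of 12 interferon-gamma-inducible GTPase genes (75%) and in 3.99% of all genes with one. It is in 9 of the 18 type I genes that fell and in 5 of the 9 that did not, and the regions of Oasl1 and Ifi44 do not hold these letters.

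Among the markers of other cell types read in the cultures labelled as CD4 T cells, those of B cells moved most. The files hold no detection call, so whether cells of each type were present was not tested. Of 20 B cell markers, 17 fell and none rose, with a median of -1.26, which was -1.31 in the numbered arrays, -1.20 between the unnumbered ones and -1.37 without the unnumbered Th0 array. Their mean level was 4.54 to 4.66 in Th17 arrays and 5.82 to 5.96 in Th0 arrays. Cd79a, a signalling chain of the B cell receptor, had 5.46, 5.69, 5.62 and 6.10 in Th17 arrays, against 8.04, 8.10, 8.18 and 8.09 in Th0 arrays (-2.38, adjusted p = 6.41e-11). Every Th17 array was below every Th0 array for this gene, and Ms4a1 (CD20, -1.86), Cd79b (-1.85), the transcription factor Pax5 (-1.57) and the kinase Blk (-1.29) fell likewise. Of 16 MHC class II genes, by which antigen is presented to CD4 T cells, 10 fell and none rose (1 rose without the unnumbered Th0 array). The class II chain H2-Aa had 5.35, 5.24, 5.35 and 5.32 in Th17 arrays and 7.34, 6.92, 7.14 and 7.20 in Th0 arrays (-1.84). H2-DMb2 (-2.13), the invariant chain Cd74 (-1.54) and their regulator Ciita (-0.60) also fell. The part of B cells in the falls of Fcer2a, Tnfrsf13c, Cxcr5, Cd83 and the class II genes was not tested.

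Immunoglobulin genes followed the B cell markers. Of 220 immunoglobulin segment and constant genes, counted by symbol after the values were seen, 130 fell and 2 rose, with a median of -0.62. The largest fall was at a feature named Igh-V3609N (chr12:113328976-113330523), which had 4.76, 4.71, 4.44 and 4.54 in Th17 arrays, against 9.0, 8.95, 8.89 and 8.97 in Th0 arrays (-4.34, adjusted p = 1.51e-13). In the RefSeq annotation this span overlaps Ighg1, the constant region of IgG1, so the signal cannot be given to a variable segment by name. Among 10 plasma cell markers, 4 fell and 2 rose, and 2 fell without the unnumbered Th17 array. The chaperone Mzb1, found in B cells and plasma cells, fell by 2.15, and Jchain, the joining chain of secreted antibody, was 3.88 ± 0.14 in Th17 and 3.18 ± 0.16 in Th0 (SD, n = 4 each), a rise of 0.70. The dendritic cell list of 24 genes had 1 higher and 6 lower, with a median of -0.15.

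Of 25 neutrophil markers, 3 rose, namely Ly6g, Cxcr2 (0.96) and Lcn2 (0.67), and none fell, which is 12% higher against 8.50% of all genes. Without overlap, 6 of the 25 were higher in Th17 and 0 lower, which is 24% higher against 10.1% of all genes. The mean of the list, which includes Ly6g, was 3.83 to 3.94 in Th17 and 3.48 to 3.59 in Th0. The median difference of its genes was 0.17, against -0.03 over all genes. S100a8, among the most abundant neutrophil transcripts, had 2.70, 2.42, 2.77 and 2.50 in Th17 arrays, against 2.27, 2.15, 2.36 and 2.20 in Th0 arrays (0.35, adjusted p = 0.201), without overlap but not past the threshold. S100a9 had 4.02, 3.65, 4.10 and 3.41 in Th17 and 3.39, 3.20, 3.67 and 3.71 in Th0, and the granule genes Camp, Ltf, Ngp, Elane and Mpo were at -0.04, 0.13, 0.18, 0.18 and -0.16, none past the threshold. These granule genes all overlapped between the groups. The levels of S100a8 and Camp were near the median of the antigenomic controls, which was 2.562 over the 8 arrays. Selp, which platelets store, rose by 3.12, while the platelet gene Pf4 was at -0.04 (adjusted p = 0.815) and the platelet integrin Itgb3 fell by 0.50. Of 30 macrophage and monocyte markers, 5 rose (16.7%, against 8.50% of all genes) and 2 fell (6.67%, against 7.29%). Their mean was 4.32 to 4.45 in Th17 and 4.22 to 4.30 in Th0. Lysozyme (Lyz2) had 4.91, 5.04, 5.11 and 5.36 in Th17 arrays, against 4.24, 3.42, 3.73 and 3.67 in Th0 arrays (1.34), the yeast receptor Clec7a rose by 1.26 and Cd68 by 0.45, and Mpeg1 fell by 0.83. The defining genes Adgre1, at 2.93 ± 0.08 in Th17 and 3.06 ± 0.17 in Th0, and Csf1r, at 4.09 ± 0.13 in Th17 and 3.92 ± 0.08 in Th0 (SD, n = 4 each), were not past the threshold. Of the CD8 chains, Cd8a rose by 0.91, and Cd8b1 was 7.10 ± 0.04 in Th17 and 6.84 ± 0.13 in Th0 (0.26, adjusted p = 0.0551). Of 12 markers of gamma-delta and other innate-like T cells, 4 rose and 1 fell (2 fell without Th0 array 2). The largest rise on that list was that of Il1r1 (3.43), named above with the cytokine receptors. Of 18 mast cell and basophil markers 1 fell (5.56%, against 7.29% of all genes) and none rose.

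**Figure D5:**
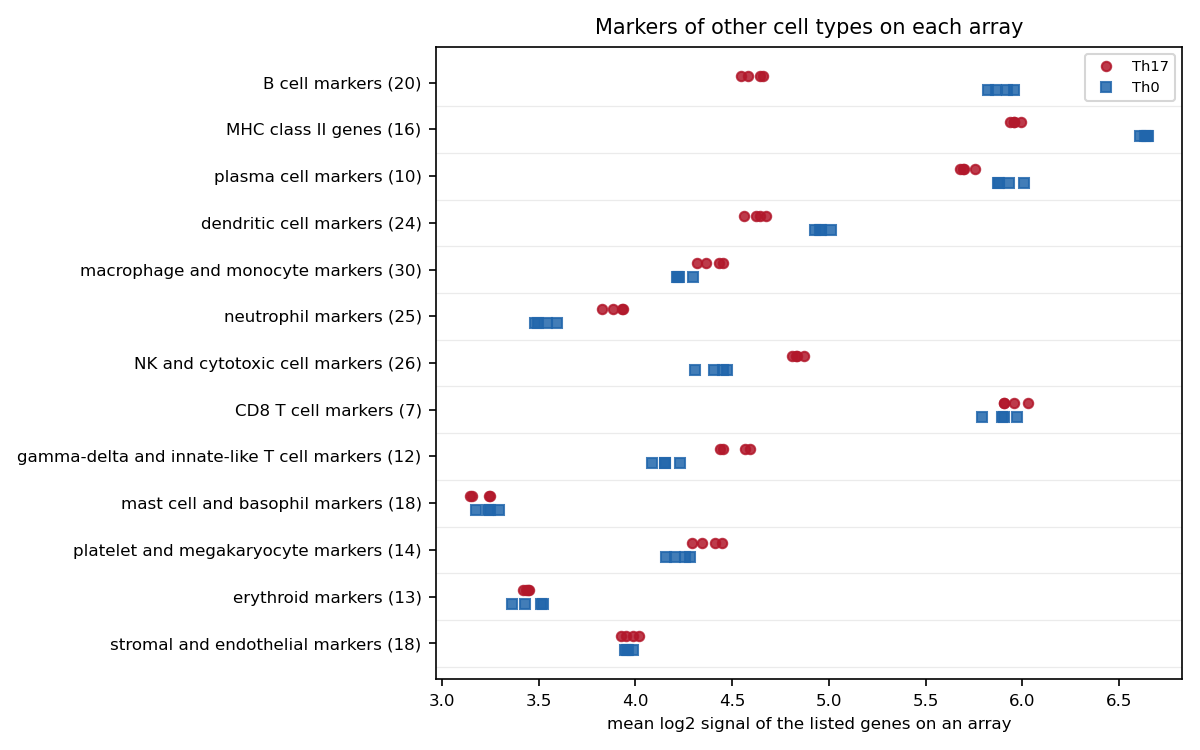
Mean log2 signal of the marker lists of other cell types in each array, 1 point per array, with Th17 above Th0 for each list. The B cell list (4.54 to 4.66 in Th17 and 5.82 to 5.96 in Th0) and the MHC class II list (5.94 to 5.99 and 6.61 to 6.65 in the same order) are lower in every Th17 array.

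The T cell receptor's own genes rose. Of 133 T cell receptor alpha segments 97 rose and none fell, with a median of 0.61, and of 30 beta segments 20 rose and none fell, with a median of 0.38, both families counted by symbol after the values were seen. Of 22 genes of T cell receptor signalling, 12 rose and 3 fell, with a median of 0.30. The Tec family kinase Txk had 8.69, 8.71, 8.65 and 8.67 in Th17 arrays, against 6.34, 6.49, 6.39 and 6.28 in Th0 arrays (2.31, adjusted p = 4.86e-13). Trat1 had 5.38, 5.65, 5.27 and 5.47 in Th17 arrays and 8.82, 8.71, 8.88 and 8.89 in Th0 arrays (-3.38). These genes thus moved opposite ways in every array. Of 24 TGF-β target genes, 7 rose and 3 fell, with a median of 0.15, and 1 fell with each array centred on its median. Ldlrad4 and Smad7, both inhibitors of the pathway, rose by 1.57 and 0.42, while the largest falls were those of Nedd9, a scaffold protein of adhesion signalling, at -0.39 and the integrin subunit Itgb8 at -0.39. Itgb8 did not pass the threshold without Th17 array 2, Th17 array 3, Th0 array 2 or the unnumbered Th0 array (adjusted p 0.0669 to 0.0955). Of 22 target and pathway genes of IL-6 and STAT3, 10 rose and 4 fell, with a median of 0.11, and 2 fell with centring or without the unnumbered Th17 array, Th17 array 1, Th0 array 2 or Th0 array 3. Socs3, the feedback inhibitor of IL-6 signalling, rose by 0.70, and the transcription factor Cebpb fell by 0.45. Of 13 targets of the aryl hydrocarbon receptor, 3 rose and 2 fell. Their differences ran from -1.73 to 0.75, so the largest was a fall. Tiparp rose by 0.75 and Cyp1b1 by 0.59, while Cyp1a1, its classical target, had 4.48, 4.45, 4.61 and 4.33 in Th17 and 4.21, 4.57, 4.68 and 4.41 in Th0, which overlap (0.00, adjusted p = 0.999).

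Of 548 microRNA genes, 20 rose and 20 fell, which is 3.65% each way, against 8.50% higher and 7.29% lower of all genes. Those named here were chosen after their values were seen. The array reads their hairpins or host transcripts and not the mature RNA. Mir155 (chr16:84713023-84715242), the host of a microRNA of activated lymphocytes, had 7.54, 7.60, 7.31 and 7.43 in Th17 arrays, against 8.71, 8.75, 8.79 and 8.95 in Th0 arrays (-1.33, adjusted p = 7.31e-09). The host gene of the cluster of miR-17, miR-18a, miR-19a and miR-20a, which promotes proliferation, was also lower. Mir17hg had 5.35, 5.27, 5.30 and 5.25 in Th17 and 5.83, 5.77, 6.16 and 5.70 in Th0 (-0.57), and the features of Mir17, Mir18, Mir19a and Mir20a, which also match other genes, were at -0.40, -0.57, -0.54 and -0.69. The groups overlapped for Mir17 and Mir20a. The mature sequences, from RefSeq on build GRCm38.p6, are shown with the seed (bases 2 to 8) in capitals.
miR-155-5p (chr16:84714143-84714165, plus strand): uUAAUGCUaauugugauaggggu
miR-17-5p (chr14:115043684-115043706, plus strand): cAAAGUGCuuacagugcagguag
miR-20a-5p (chr14:115044183-115044205, plus strand): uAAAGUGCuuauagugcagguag
miR-18a-5p (chr14:115043867-115043889, plus strand): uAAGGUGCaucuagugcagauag
miR-19a-3p (chr14:115044048-115044070, plus strand): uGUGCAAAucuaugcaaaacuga
Of these, miR-17-5p and miR-20a-5p share the seed AAAGUGC. The largest rise among microRNA genes was that of Mir361, with 5.81, 5.77, 4.65 and 5.43 in Th17 arrays and 3.66, 3.50, 4.07 and 3.76 in Th0 arrays (1.67, adjusted p = 3.48e-05).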

How the data were processed

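RNA from 16 samples of cultured cells was hybridised to mouse gene arrays (MoGene 2.0 ST), and the values are log2 signals that the authors deposited after preprocessing and quantile normalization; they were used as deposited. The 2 deposited tables hold the same values (largest difference 0), and no value column was left unused (0). The sources name the preprocessing only as a range migration algorithm, and its settings are not given in the sources used here.

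Of 33793 main features, 31872 carry 1 gene symbol, and the brightest feature over all 16 arrays stood for a gene. One mean per group was fitted to all 16 arrays with limma 3.58.1 in R 4.3.3 (lmFit, eBayes), with the contrast Th17 minus Th0, two-sided, and Benjamini-Hochberg adjustment over 30920 genes at 0.05. On simulated data with 50 genes changed at each size, 52% of log2 changes of 0.5, 94% of 1 and 100% of 2 and 4 were recovered. There were 8 false calls among the unchanged genes. The simulated noise was independent between arrays, and a far smaller share of genes was changed than the 15.8% called in the data. So these values do not estimate the false calls or the recovery in the reported counts. The 49 lists (1326 of 1346 genes matched) are described by counts and medians, with no set test. Members, lists and tests were chosen with earlier results of these data known.

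Named genes are the 15 largest rises and 10 largest falls without overlap (predicted genes, small RNA genes and immunoglobulin and T cell receptor segments left out), up to 4 called members each way per list, and a set of lineage genes, and some genes that this rule takes in are not reported here. Named outside this rule, after their values were seen, were Il3, Tcf7, Cxcr1, Il13ra1, Entpd1, Ly6c1, Klre1, Klri2, Klrc3, Klrb1c, Gzma, Asns, Sesn2, Trib3, Atf4, Phgdh, Psat1, Mthfd2, Lars, Slc2a1, Ldha, Hk2, Ifih1, Usp18, Gbp4, Gbp6, Gbp7, Pax5, Cd79b, Ciita, Camp, Ltf, Ngp, Elane, Mpo, Pf4, Csf1r, Smad7, Socs3, Cyp1a1, Igh-V3609N, the neighbours of Il13 and the small RNA genes.

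Gene coordinates are those of the deposited annotation, which names no build; 67.5% of 26578 genes have the same start or end in GRCm38. Motifs were searched on both strands of RefSeq start regions. Alternatives were the 8 arrays alone, blocks, single arrays left out, centring, dim genes left out, feature means, other variance models and the Mann-Whitney test of the methods.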

Additional observations from a re-analysis of the deposited data

Results flagged for a closer look

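In each group of 4 arrays, the highest or lowest array was checked for a gap to the nearest other array beyond Dixon's critical value. Of 556 such checks, over 229 named genes and 49 lists in 2 groups, 38 had an outlying array, where chance gives about 1 in 20. No explanation was tested for any of them.

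Among Th17 arrays the unnumbered one stood above the other 3 for Tcf7 (9.84), Ccr6 (6.32), Emb (10.36), Itga2 (5.02), Ccnb2 (8.94), Gbp5 (8.16) and Tiparp (7.95). Array 1 of Th17 was low for Cd3e (10.88), Il15ra (5.16) and Mpeg1 (3.68). Array 2 of Th17 was low for Csf2 (4.62) and high for Tbx21 (6.29), Cebpb (5.17) and Camp (2.71). Array 3 of Th17 was high for Foxp3 (6.87, with the others at 6.35 to 6.36) and low for Gbp11 (4.31) and Ciita (4.59).

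Among Th0 arrays the unnumbered one was high for Gata3 (7.89), Mthfd2 (9.02), P4ha1 (8.91) and Mzb1 (7.36), and low for Nt5e (6.19), Klrk1 (3.55), Slc1a4 (6.65) and Camp (2.56). Array 1 of Th0 was high for Cenpa (6.96). Array 2 of Th0 was high for Dpp4 (7.20) and H60b (4.73) and low for Fabp5 (5.30) and Cd8a (4.83).

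Of list means, Th17 array 2 was lowest for the TGF-β target genes (6.32), the chemokine receptors (6.01) and the oxidative phosphorylation genes (6.87). In Th0, array 3 was lowest for the chemokine receptors (5.63) and highest for the macrophage and monocyte markers (4.30). Array 2 of Th0 was lowest for the glycolysis and HIF-1 target genes (8.16), array 1 for the oxidative phosphorylation genes (6.81), and the unnumbered one was highest for the DNA replication genes (6.98).

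Of the 1920 main features without a gene symbol, which entered no comparison above, 70 were higher and 72 lower in Th17. Among the genes tested above, 8.50% were higher and 7.29% lower. The largest difference was -2.41 (adjusted p = 9.55e-09), at a feature on chromosome 16 (chr16:84619807-84620128) with means of 4.34 in Th17 and 6.76 in Th0. It lies upstream of Mir155 on the same chromosome and was reported because of its size.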

How the results depend on the processing

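With another set of arrays, scaling or variance model, 1704 to 2464 genes were lower and 2263 to 2877 higher, against 2255 and 2628 as reported, and no gene called there was called in the opposite direction under any of them. Centring each array on its median gave 2650 higher and 1704 lower, and trend and robust variances gave 2877 and 2464. Leaving out 1 array at a time gave 2263 to 2508 higher and 1923 to 2037 lower. The exact Mann-Whitney test, whose smallest p at 4 against 4 is 0.0286, gave 3120 genes higher and 2940 lower at an unadjusted 0.05, and after Benjamini-Hochberg adjustment 0 higher and 0 lower, a limit that the design sets. Deviations from the group means correlated at 0.166 between the unnumbered arrays of the groups. They correlated at -0.0179, 0.0203 and 0.0408 between arrays numbered 1, 2 and 3. The own number gave the highest value for 2 of 4, the unnumbered arrays among them. The numbers were not taken to pair the arrays, and a replicate block gave 2600 higher and 2231 lower. With numbered or unnumbered arrays as a block, 2695 were higher and 2339 lower. The 9 list medians that moved by more than their spread were all but 1 those between the unnumbered arrays, 1 against 1. These were 0.97 for the Th17 genes, 0.25 for the IL-6 and STAT3 targets, -0.65 for the type I interferon genes, -0.00262 for purine and pyrimidine synthesis, -0.42 for MHC class II, -0.004155 for the macrophage markers, -0.29 for the dendritic cell markers and 0.23 for the natural killer list. Without 1 array the B cell median was -1.37 to -1.23, the lower value without the unnumbered Th0 array. No named value changed sign while called. Calls that single arrays ended were those of Cd4, Kif3a, Itgb8 and Ifi27l2a. The cause of these moves was not tested. The number of arrays limits the precision, and the files hold no detection call, so levels near the antigenomic controls (median 2.562) have no stated lower bound.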
